A study of Mus musculus with 2 samples.

Results

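The distal microRNA genes of the imprinted region between Dlk1 and Dio3 on mouse chromosome 12 were examined in newborn bladder. The members were taken from a list of gene names, from Mir136 and the genes inside Rian to the genes at the far end of Mirg, with no threshold on level. There were 38 listed genes, of which 37 had a row among the 1973 miRNA genes counted. Mir136 had none, so it has no level here and enters only the counts of sequences. For 33 members the counts on the annotated strand were used. For 4 loci, Mir376a, Mir409, Mir299a and Mir380, the counts came from the opposite strand of the rows Gm25252, Gm24321, Mir299b and Gm25750, which overlap them.

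Small RNA libraries were made from total RNA, size range under 30 nucleotides, of whole bladders of mice of strain B6NCrl at postnatal day 0. The 2 libraries form 1 group. Each came from the bladder of a single pup, and both pups had the same mother; they are called pup 1 and pup 2. No mutation or treatment is given in the labels, nor the sex of either pup, so levels and the spread between littermates can be described, and no condition can be compared. Pup 1 had 7460621 sense-strand gene counts and pup 2 had 3636650, a 2.05-fold difference in depth. Levels are counts per 1000000 of these (CPM), with the SD over the pups (n = 2). How evenly different sequences were captured was not tested, so levels of different loci are compared as counts only. A count of 0 allows a level of up to 0.402 CPM for pup 1, and of 0.825 CPM for pup 2, and these limits cover counting error only.

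Genes of this region that make no protein are expressed from the chromosome inherited from the mother, and long non-coding RNAs such as Meg3, Rian and Mirg are thought to be parts of one long transcription unit from which snoRNAs and miRNAs are cut. A miRNA hairpin is cut into a duplex, and 1 arm, named 5p or 3p, guides repression of messenger RNAs that pair with its seed, bases 2 to 8. The large hairpin array from Mir379 to Mir410 is found in placental mammals and is best known in the brain, the placenta and the metabolism of the newborn. Parental origin was not measured here.

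The positions were checked in the GENCODE M21 annotation of GRCm38. The 37 members lie on the plus strand of chromosome 12 between 109611500 and 109747960, a span of 136 kb. Mir341, Mir1188 and Mir370 are in introns of Rian (109603940 to 109661716). A further 13 members, from Mir382 to Mir3072, are inside Mirg (109729764 to 109749460), 9 overlapping an exon and 4 in introns. The other 21, from Mir379 to Mir544, lie between the annotated ends of Rian and Mirg, in no long gene on their strand. By this annotation, then, 16 of the 37 lie within Rian or Mirg. Mir136 lies before Rian, at 109595327 to 109595388, opposite Rtl1.

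The mature sequences below were read from RefSeq (GRCm38.p6), which holds 72 mature sequences for the 38 loci, with the seed in capitals. They were picked from these 72 and give all the members that share a seed, with some close relatives. Other near matches are not printed, such as miR-496a-5p, whose seed differs from that of miR-494-5p at 1 base. The counts are per hairpin gene and do not say which arm was read. The first set carries the 4 seeds that 2 members share; miR-411-5p, whose seed differs from that of its neighbours in the set, is placed beside them.
miR-379-5p: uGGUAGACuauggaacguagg
miR-1193-5p: uGGUAGACcggugacguaca
miR-411-5p: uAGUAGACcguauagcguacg
miR-379-3p: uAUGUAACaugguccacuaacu
miR-411-3p: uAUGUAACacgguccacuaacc
miR-370-5p: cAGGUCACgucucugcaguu
miR-1193-3p: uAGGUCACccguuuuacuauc
miR-494-5p: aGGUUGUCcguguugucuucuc
miR-410-5p: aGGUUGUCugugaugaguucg

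The second set holds some close relatives with different seeds, and some 3p arms that share the run ACACGG outside or at the edge of the seed.
miR-300-3p: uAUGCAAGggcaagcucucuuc
miR-381-3p: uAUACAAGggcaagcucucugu
miR-543-3p: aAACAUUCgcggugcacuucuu
miR-495-3p: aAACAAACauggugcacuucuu
miR-154-3p: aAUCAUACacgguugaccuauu
miR-369-3p: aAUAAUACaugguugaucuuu
miR-485-3p: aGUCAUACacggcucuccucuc
miR-323-3p: cACAUUACacggucgaccucu

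The 72 sequences held 68 different seeds, and 4 of these were shared between members, by 6 members in all. For Mir376c, Mir487b, Mir539 and Mir485 the RefSeq table held only 1 arm, so more members may share a seed. For 63 of the 72 the seed was in no mature sequence of the RefSeq table outside the region. The nearest pair was miR-379-3p and miR-411-3p, which matched at 20 of 22 bases and had the same seed. Of the other pairs printed, miR-300-3p and miR-381-3p matched at 19 of 22 bases with 1 seed base different, and miR-154-3p and miR-369-3p at 17 of 21 with 1. The pair miR-543-3p and miR-495-3p matched at 18 of 22 with 2 seed bases different. The run ACACGG, searched on the mature strand only, was in 5 of the 72 member sequences (6.94%), those of miR-411-3p, miR-323-3p, miR-494-3p, miR-485-3p and miR-154-3p. It was in 2 of 1666 other mature sequences (0.12%). Among the hairpins, 36 of which were in the table, that of Mir136 included, the most widespread run of 6 bases, tied with one that overlaps it, was UCGCUU. It was in 10 of the 36 (27.8%) and, on the same strand, in 5 of 969 other mouse hairpins (0.516%). These runs were chosen after the sequences were seen and are a description. The median G and C content of the 36 hairpins was 43.4%, with a range from 29.1% for Mir376c to 72.3% for Mir3072, beside 51.8% for the other hairpins.

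Together the 37 members held 2.68% of sense-strand gene counts in pup 1 and 2.40% in pup 2, a mean of 2.54% ± 0.195. With Mir143, which alone held 52.5% ± 0.232 of the counts, left out of the totals, the mean was 5.35%. Of the 2.54%, the 4 loci on the opposite strand gave 0.501% ± 0.0465. Mir143, the smooth muscle miRNA that dominates the libraries, had 20.7 ± 1.49 times the counts of all members together. Detection required 1 CPM and 3 counts in both pups, and 36 of the 37 members met it, beside 17.0% of all 1973 rows on the sense strand, or 17.2% with the 4 loci read from the opposite strand. Of the members, 34 were at 10 CPM or more in both pups, 20 at 100 and 10 at 1000. The median member was at 159 CPM ± 11.4, beside 79.0 CPM ± 3.96 for the median of the 339 detected rows, and was at 335 CPM with Mir143 out of the totals. In bulk tissue, a level set by fewer cells and one set by less RNA per cell cannot be told apart.

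A few loci carried most of the sum. Mir411 had 5954 CPM in pup 1 and 5508 CPM in pup 2, which made it the highest of the members in both. Mir379, the first hairpin of the array and its namesake, had 3386 and 2857 CPM. These neighbours share the 3p seed printed above, and together they held 34.8% ± 0.0464 of the members' counts. Mir487b had 2634 and 2441 CPM, the third place in both pups. Mir541 followed with 1921 and 1675 CPM, and Mir376a with 1811 and 1621 CPM. Mir376a belongs to the miR-376 family, known for adenosine-to-inosine editing of its transcripts in brain; whether reads were edited was not tested. These 5 loci held 58.6% ± 0.0244 of the sum.

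The next 5 were close together. Mir409 had 1629 CPM in pup 1 and 1392 CPM in pup 2, and Mir299a had 1329 and 1135 CPM. These 2 were read from the opposite strand. Mir382 was at 1321 and 1131 CPM. Mir369, whose 3p arm is known to bind an AU-rich element of the TNF messenger RNA, was at 1253 and 1158 CPM, and Mir381 at 1217 and 1163 CPM. The ranges of Mir299a, Mir382, Mir369 and Mir381 over the pups overlapped from each to the next. Mir299a was over Mir382 in both pups, while Mir382 and Mir369, and Mir369 and Mir381, changed places. The first 10 loci held 83.7% ± 0.205 of the members' counts, and the same 10 led in each pup.

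**Figure D1:**
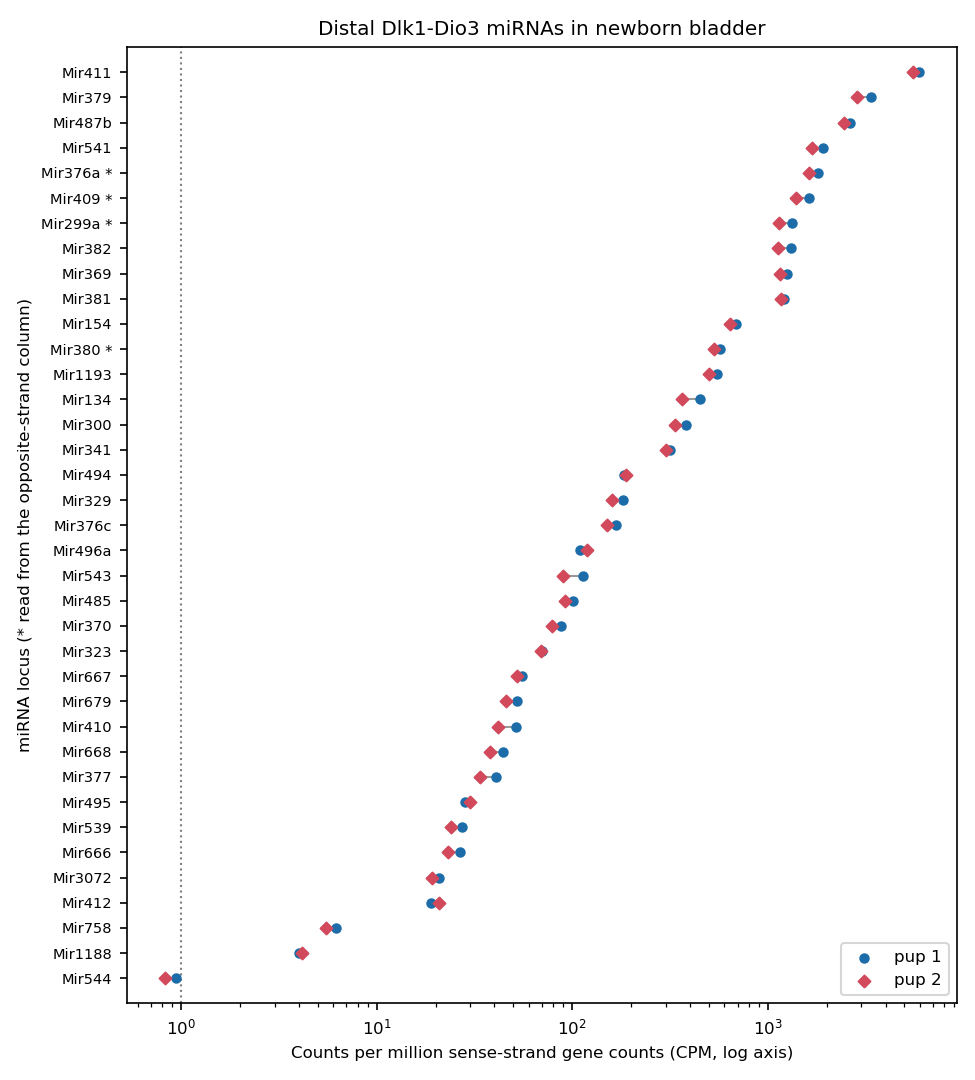
Level of each of the 37 loci with a row, in CPM on a log axis, with 1 point per pup joined by a line; asterisks mark the 4 loci read from the opposite-strand column and the dotted line marks 1 CPM. Levels ran from Mir411 at 5954 and 5508 CPM to Mir544, the sole locus under the dotted line, and the spread between pups was small beside the spread between loci.

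Members of middle level included Mir154 at 664 CPM ± 31.2, Mir380 at 551 CPM ± 25.6 and Mir1193 at 523 CPM ± 32.8. Mir1193, at 547 and 500.2 CPM in the pups, shares the 5p seed of Mir379 and was far under it in both. Mir134, known for limiting the size of dendritic spines in neurons, had 449 CPM in pup 1 and 362 CPM in pup 2. Mir300 was at 357 CPM ± 32.7, well under its close relative Mir381 in both pups. Mir341 in Rian was at 308 CPM ± 9.63. Mir494, Mir329, Mir376c, Mir496a and Mir543 had means from 187 down to 102 CPM.

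The other 16 were under 100 CPM on average. Mir485, known for acting on a synaptic vesicle protein in neurons, was at 96.3 CPM ± 5.85, and Mir370 at 83.6 CPM ± 6.27. Mir410, the last hairpin in the usual name of the array, had 51.6 CPM in pup 1 and 41.8 CPM in pup 2, both under the levels of Mir494, which has the same 5p seed. Mir323, Mir667, Mir679, Mir668, Mir377, Mir495, Mir539, Mir666, Mir3072 and Mir412 ran from 69.6 down to 19.9 CPM. The lowest were Mir758 at 5.83 CPM ± 0.471, Mir1188 at 4.07 CPM ± 0.0732 and Mir544, which had 7 counts in pup 1 and 3 in pup 2. Mir544 was thus at the limit of what these depths show.

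In the order of all 37 levels there are 36 neighbouring pairs. The ranges over the pups did not overlap in 20 of them and overlapped in 16. Mir411, Mir379, Mir487b and Mir541 stood apart from each other in that sense. Both loci of a pair were measured in the same libraries, and in 11 of the 16 overlapping pairs the order was the same in both pups, as for Mir541 over Mir376a and Mir376a over Mir409. The order changed in a pup in the other 5: Mir382 and Mir369, Mir369 and Mir381, Mir496a and Mir543, Mir543 and Mir485, and Mir3072 and Mir412.

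Members next to each other in order along the chromosome often differed widely in level. The median fold between each member and the next member along the chromosome was 6.37 over 36 pairs. Other annotated miRNA genes, which lie between some of these pairs, were left out. Of the pairs, 15 differed 10-fold or more and 4 under 2-fold. Even among the 13 pairs with gaps of at most 500 bases the median fold was 4.81. The clearest run is near the end of the array. Mir409 (109743158 to 109743236), Mir412 (109743289 to 109743368) and Mir369 (109743418 to 109743496) are separated by gaps of 52 and 49 bases. Mir412 had 18.9 CPM in pup 1 and 20.9 CPM in pup 2. Mir409 had 76.4 ± 13.9 times, and Mir369 60.9 ± 7.72 times, the counts of the hairpin between them. In Rian, Mir341 had 75.6 ± 3.72 times the counts of Mir1188, which begins 226 bases after it ends. Mir487b (109727333 to 109727414) had 99.4 ± 3.68 times the counts of Mir539, 714 bases further on. In each of these pairs the difference was larger than the spread between the pups. That spread does not measure how evenly different sequences are captured.

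**Figure D2:**
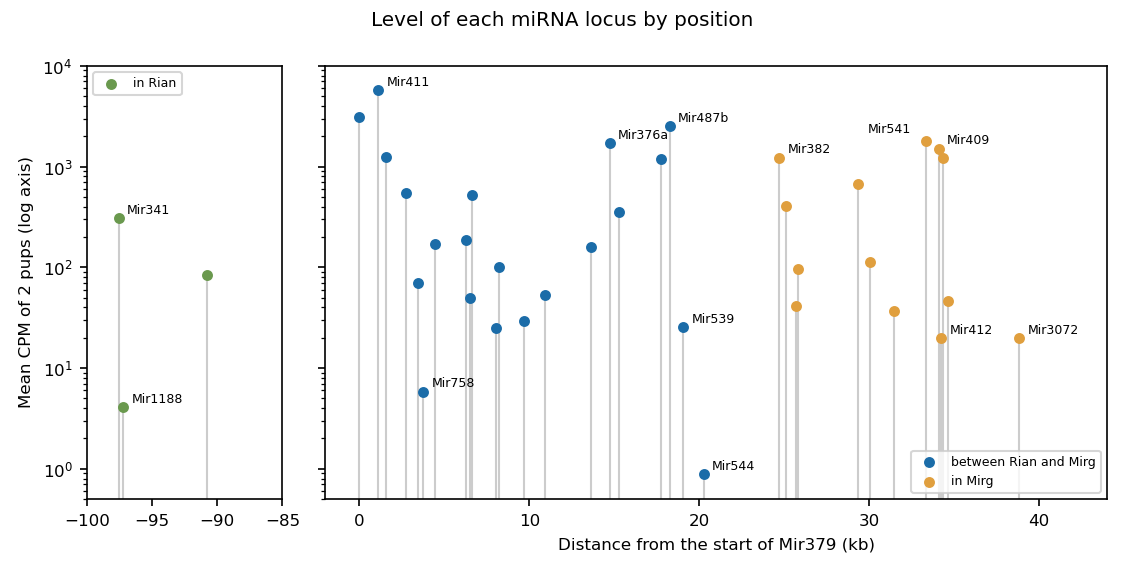
Mean CPM of the 2 pups on a log axis against distance from the start of Mir379 in kb, with the 3 loci in Rian in the left panel, and 1 point per locus coloured by the annotated gene it lies in. Loci a short distance apart can differ widely: Mir412 at 19.9 CPM stands between Mir409 at 1511 CPM and Mir369 at 1206 CPM.

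By segment, the 21 loci between Rian and Mirg held 70.2% ± 0.344 of the members' counts, the 13 in Mirg held 28.3% ± 0.401 and the 3 in Rian 1.56% ± 0.0569. Their median levels were 171 CPM, 114 CPM and 83.6 CPM. Across the 35 members with a hairpin in the table and a level, Spearman's rho between G and C content and mean CPM was -0.30, and that between hairpin length and mean CPM was -0.12. These are descriptions across genes of the same libraries, which are not independent replicates.

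Members with copies could be measured too low, since reads mapped to several places (22.7% of reads in pup 1 and 24.8% in pup 2) were listed apart from genes. This could touch at least the 4 members whose hairpins hold an exact stretch of 20 bases or more found in a second annotated hairpin. Mir411 and Mir758 share one with each other, and Mir376c and Mir487b each share one with Mir376b, which has no row among those used here. The levels of these 4 members, the low one of Mir758 among them, and the ratio of Mir376c to Mir376a are therefore uncertain. The stretch was sought in whole hairpins, and miR-411-3p and miR-758-3p, aligned at their first base, matched at 15 of 19 bases. Shorter or inexact matches, and matches elsewhere in the genome, were not sought, so other members could be touched too.

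Which column held which strand was read from the values, and the 4 loci below were assigned to the opposite strand by the list itself, so the shares here describe that choice and test nothing. All 33 members read on the sense strand had 0 counts on the opposite strand in both pups, while over all 1973 rows the opposite strand held 3.18% ± 0.00563 of gene counts. In the rows overlapping Mir376a, Mir409 and Mir380 the opposite strand held 100% of counts; for Mir376a this was 13510 counts in pup 1 and 5896 in pup 2 (exact 95% intervals, for independent reads, from 99.97% and from 99.94%). At Mir299a (109710638 to 109710700) the opposite strand held 99.96% in pup 1 (exact 95% interval 99.90% to 99.99%). These 4 loci made up 15.3% ± 1.44 of all opposite-strand gene counts. A sense-only reading would have left out 4 of the 12 highest members, and 3 of the first 10.

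The littermates were compared to see how far the members vary between the libraries of 1 litter. Each pup gave 1 library, so a difference between the pups cannot be told apart from one between library preparations. With TMM-scaled library sizes, 31 of the 37 members had a negative log2 ratio of pup 2 over pup 1 and 6 a positive one, with a median of -0.13 beside 0.03 over all 366 rows tested. By a two-sided exact binomial test with Benjamini-Hochberg adjustment over all 366 rows, 13 members were higher in pup 1 (35.1%), beside 13.9% of all rows. None was higher in pup 2, beside 18.9% of all rows. The split over all rows, 51 higher in pup 1 and 69 in pup 2, became 77 and 49 with DESeq2 size factors, under which 19 members passed, all on the side of pup 1. The ratios were small: in 33 of the 37 the pups differed by under 1.2-fold in CPM.

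Among the 13, Mir543 had the ratio furthest from 0, with 113 CPM in pup 1 and 89.9 CPM in pup 2 (log2 ratio -0.31, counting SE 0.0939, exact binomial adjusted p = 0.00422). Mir134 was next with the values given above (-0.28, exact binomial adjusted p = 6.06e-09). Mir379 had a log2 ratio of -0.22 with a counting SE of 0.0168 (exact binomial adjusted p = 9.17e-39). Mir299a, Mir409, Mir382, Mir541, Mir300, Mir376a, Mir1193, Mir369, Mir411 and Mir487b completed the set, with ratios from -0.20 to -0.09. The 24 others did not pass, among them Mir410 at -0.28 (exact binomial adjusted p = 0.111). Mir496a and Mir412 had the highest positive ratios, 0.15 and 0.17.

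This test compares 2 libraries with read counting noise alone, and at a greater depth a smaller ratio passes. Its p-values say nothing of the spread between animals. Of the rows with 1000 counts or more, 22 were members, and 13 of these passed as higher in pup 1, beside 26.1% of all 165 such rows. With edgeR's exact test and a common dispersion, estimated from the same pups as if they were replicates (a coefficient of variation of 0.131), 0 of the 37 members passed, 0 were under an unadjusted p of 0.05, and 1.37% of all rows passed. That dispersion takes the difference between the pups as noise, so ratios as small as the members' could hardly pass. At a 2-fold minimum 0 members passed, beside 2.73% of all rows. The members lie on 1 strand of 1 region and share 2 libraries, so they are not separate evidence. Cell type markers differed between the pups in both directions. Of 22 marker rows tested, 4 passed the exact binomial test as higher in pup 1, the members' direction, and 7 as higher in pup 2. The 4 were Mir122 of liver (112 CPM in pup 1 against 31.6 CPM in pup 2), Mir208b of striated muscle at a log2 ratio of -0.46, and the epithelial Mir200c at -0.17 and Mir203 at -0.04. The 7 were Mir223, Mir144 and Mir451a of blood, Mir499 of striated muscle at 1.49, Mir205 of epithelium at 0.14, and Mir145a and Mir143 of smooth muscle at 0.06 and 0.02, which turned to -0.0028 and -0.05 with DESeq2 size factors.

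The 5 blood markers, all detected, had a summed level of 1148 CPM in pup 1 against 2300 CPM in pup 2. Most of that gap lay in Mir223, at 396 and 1274 CPM. Mir155, at 77.3 and 70.7 CPM, and Mir150, at 29.1 and 31.9 CPM, did not pass. The part of these markers in the members' ratios was not tested.

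**Figure D3:**
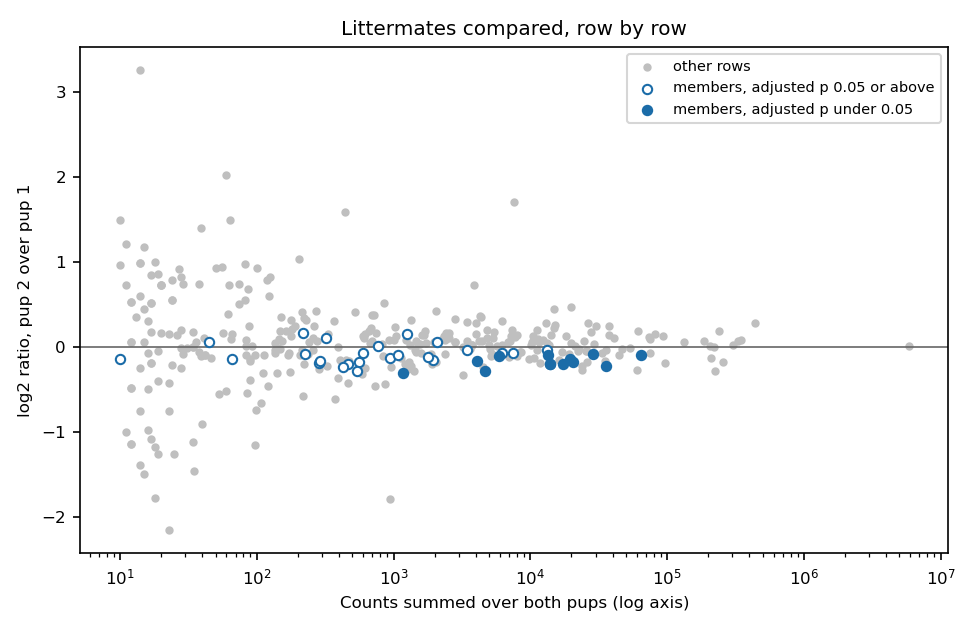
Log2 ratio of pup 2 over pup 1 against the counts summed over both pups (log axis), with 1 point per row; blue marks members, filled where the exact binomial test gave an adjusted p under 0.05. The 13 filled points lie between -0.31 and -0.09, all on the side of pup 1.

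The neighbouring genes of the same region, from Mir770 in Meg3 to the genes opposite Rtl1, were set beside the members. These 14 rows, 12 of them detected, held 0.902% ± 0.0521 of counts, and the distal members held 2.82 ± 0.0532 times as many. Without the row Mir3071, whose strand is not settled, the neighbouring rows held 0.873%. They were led by Mir127, known for guiding cleavage of the Rtl1 transcript from the other parental copy, at 4226 CPM ± 107, and Mir431 at 2083 CPM ± 257. Their median log2 ratio between the pups was -0.11, beside -0.13 for the members. Of the 12 rows tested 6 passed as higher in pup 1, and 0 as higher in pup 2. Beside them, 13.9% of all rows passed as higher in pup 1, and 26.1% of the rows with 1000 counts or more. Mir431 was at -0.23 and Mir127 at -0.03.

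The labelled tissue was checked with markers. The smooth muscle genes Mir143 and Mir145a summed to 536791 CPM ± 2122, and the 7 epithelial genes, all detected, to 16484 CPM ± 283. Genes of neurons and glia, where the array is best known, summed to 105 CPM ± 1.88 over 9 rows, 3 of them detected, and Mir124a-1, Mir124a-2, Mir124a-3, Mir9-2 and Mir9-3 had 0 counts in both pups. Since Mir124a and Mir9 exist in several near-identical copies, these genes may be measured too low.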

How the data were processed

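For each library the authors deposited raw counts per miRNA gene, for both strands together, the sense strand and the opposite strand, without pooling. Per the labels and the README text, the build was mm10 and the gene set GENCODE M4; no aligner, counter or filter is given in the sources used here. The strand of each column was read from the values. Totals of unassigned reads stayed out of library sizes. Symbols, positions and hosts came from GENCODE M21 by Ensembl gene number (1894 of 1973 rows matched), so gene models can differ from those counted. Sequences came from RefSeq, GRCm38.p6.

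The members and lists were chosen with earlier results of these data known. All members may be named; outside them, the genes of the Meg3 and Rtl1 neighbourhood, cell type markers and Mir143. The pups were compared by a two-sided exact binomial test on rows with at least 10 counts summed, with TMM scaling of those rows in edgeR 4.0.16 (R 4.3.3), a prior count of 0.5 for ratios and a threshold of 0.05 on the adjusted p. With 1 library a side, edgeR's quasi-likelihood test has no residual degrees of freedom. The test was run on simulated counts with read counting noise alone, so the simulation does not cover the spread between animals. With TMM scaling it called 30 of 50 rows changed 1.25-fold, 45 of 49 changed 4-fold and 7 of 173 unchanged rows. As alternatives, libraries were scaled by total counts or by DESeq2 1.42.0 size factors, minimums were changed, both strands were counted, a common dispersion was used, Mir143 was taken out of the totals, and each pup was left out. Python 3.11.15 with pandas 2.3.3 and scipy 1.17.1 did the rest.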

Additional observations from a re-analysis of the deposited data

Results flagged for a closer look

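The row Mir299b, read here for its opposite strand, also had 4 counts on its own annotated strand in pup 1, above the 3 counts that a count of 0 allows, and 1 count in pup 2. No group had enough samples for a check of single samples that stand apart.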

How the results depend on the processing

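The number of members called higher in pup 1 was 13, and 17 with total count scaling, 19 with DESeq2 size factors, 17 at a minimum of 1 count, 15 at 100 counts and 13 in counts of both strands. It was 0 with edgeR's common dispersion and 0 at a 2-fold minimum. Over all rows, calls were 120 (69 higher in pup 2 and 51 in pup 1), 126 with DESeq2 size factors (49 and 77), 5 with the common dispersion (4 and 1) and 10 at a 2-fold minimum (7 and 3). Mir323, at a log2 ratio of 0.01, was at -0.0139 with total count scaling, -0.0506 with DESeq2 size factors, -0.0459 at a minimum of 1 count and -0.0072 at 100 counts; Mir494, at 0.06, was at -0.0021 with DESeq2 size factors. No other member changed sign under these settings, except Mir1188, at 0 with DESeq2 size factors. The members' summed level of 2.54% was 2.04% without the opposite-strand loci, 1.70% without the 4 members that share a run of bases, 5.35% with Mir143 left out of the totals, and 2.40% to 2.68% with each pup left out. The median member was at 335 CPM with Mir143 left out of the totals, and at 151 to 167 CPM with each pup left out. Members detected numbered 34 to 37 under the other minimums and 36 in each pup alone. With each pup left out, the median fold between neighbouring members was 6.18 to 6.56. The 4 opposite-strand loci then held 14.2% to 16.3% of opposite-strand counts. These last 2 checks, and the markers under other scalings, were chosen after seeing the data. No paired analysis was possible because there is 1 group. Leaving out a pup ends the comparison of pups.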

Other observations

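Other annotated miRNA genes lie among the members and were named after their values were seen. Mir1197 had 2 counts in each pup and Gm27379 had 1 in each, while Mir654, Mir453, Mir882 and Gm23912 had 0 in both. Mir1197 lies between Mir380 and Mir323, at 551 and 69.6 CPM.

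The row that overlaps Mir136 is Mir3071 in GENCODE M21, on the minus strand at 109595318 to 109595397. It had 2168 counts in pup 1 and 1036 in pup 2 on the strand counted as sense, or 288 CPM ± 4.04, and 1 and 0 counts on the other strand. Its identifier carries an older version number in the tables than in M21, and its strand in the release the authors used is not given in the sources used here. Mir136 was therefore given no level. Under its M21 symbol the row was kept among the neighbouring genes of the region, in their summed counts and in the comparison of the pups.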
